A study of Mus musculus with 29 samples.

Results

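Genes of heme synthesis and iron handling were followed by RNA-seq in sorted mouse megakaryocyte-erythrocyte progenitors (MEPs), marrow cells from which platelet-forming cells and red cells descend. The set held 32 genes chosen by name: 8 heme synthesis enzymes, 3 mitochondrial carriers, 4 genes of iron uptake, 5 of iron storage and delivery, 2 exporters, 2 iron regulatory proteins, 5 genes of heme breakdown and binding, and 3 of iron-sulfur cluster assembly. All 32 were found among the 18834 genes of the count files by their Entrez identifiers, and all 32 passed the filter on low counts. The 29 libraries fell into 6 genotypes. With JAK2 V617F there were 6 Ezh2 -/- libraries, 6 Ezh2 +/- libraries and 4 Ezh2 +/+ libraries. Without it there were 4 Ezh2 -/- libraries, 4 Ezh2 +/- libraries and 5 Ezh2 +/+ libraries, and the last group is the control here. Every library, the controls included, carried the SclCre transgene (also spelled ScleCre in the labels), a Cre driven by regulatory sequence of Scl, a gene of blood stem cells and progenitors. EZH2 places repressive methyl marks on histones as part of a Polycomb complex. JAK2 V617F is a mutant kinase that signals without cytokine and is found in myeloproliferative neoplasms. The V617F Ezh2 -/- and V617F Ezh2 +/- libraries were all female by label, and the other groups held both sexes. The ages of the mice, whether and when Cre was induced, the type of V617F allele and the sorting gates are not given in the labels.

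Heme is built in steps that begin and end in mitochondria: ALA synthase makes the first intermediate, a chain of enzymes turns it into protoporphyrin, and ferrochelatase inserts the iron. Red cell precursors take that iron from transferrin through the transferrin receptor, reduce it and move it out of the endosome, and pass it into mitochondria, while ferritin stores the surplus and ferroportin exports it. Iron regulatory proteins tie these steps together at the RNA level. In iron-poor cells they bind a hairpin, the iron-responsive element, and this blocks translation when the hairpin lies in a 5′ UTR and protects the messenger RNA from decay when it lies in the 3′ UTR of the transferrin receptor. MEPs stand at the start of red cell formation, before most of the heme is made.

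The hairpins are shown because they are a way in which a gene can answer to iron through its RNA. The search took a C bulge, a 5-base stem, the 6-base loop CAGTGN with A, C or T as its last base, and the matching stem. In annotated UTRs (GENCODE M21, GRCm38) it found one in 5 of the 32 genes (15.6%), against 133 of 21479 genes with an annotated UTR (0.619%). The set was chosen by name, so its share is a description and no test. Capitals mark the loop, and sequences run 5′ to 3′ as DNA.
Alas2, 5′ UTR, chrX:150547464-150547480, plus strand: cgtcctCAGTGCagggc
Fth1, 5′ UTR, chr19:9982738-9982754, plus strand: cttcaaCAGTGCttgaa
Ftl1, 5′ UTR, chr7:45459785-45459801, minus strand: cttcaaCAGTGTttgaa
Slc40a1, 5′ UTR, chr1:45925471-45925487, minus strand: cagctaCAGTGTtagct
Tfrc, 3′ UTR, first of 4, chr16:32631225-32631241, plus strand: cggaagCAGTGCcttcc
Tfrc, 3′ UTR, the second, chr16:32631604-32631620, plus strand: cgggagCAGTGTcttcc
Tfrc, 3′ UTR, the third, chr16:32631669-32631685, plus strand: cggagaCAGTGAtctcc
Tfrc, 3′ UTR, the fourth, chr16:32631716-32631732, plus strand: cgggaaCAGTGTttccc
The hairpins of Fth1 and Ftl1, the heavy and light ferritin chains, share every base but the last of the loop. A match is a description of these letters, and elements with another shape were not searched for, so a gene without a match may still hold one.

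The first enzyme of the pathway exists in an erythroid form, Alas2, and a housekeeping form, Alas1. Their RNAs moved in opposite directions with V617F in Ezh2 +/- cells, so 1 promoter window of each is shown. The windows run from 250 bases before to 50 bases after the annotated start (RefSeq, GRCm38.p6). Capitals mark matches, on either strand, to GATAA (the core bound by GATA factors), CACCC (bound by KLF1) and TTCNNNGAA (bound by STAT factors).
Alas1, chr9:106247905-106248204, minus strand: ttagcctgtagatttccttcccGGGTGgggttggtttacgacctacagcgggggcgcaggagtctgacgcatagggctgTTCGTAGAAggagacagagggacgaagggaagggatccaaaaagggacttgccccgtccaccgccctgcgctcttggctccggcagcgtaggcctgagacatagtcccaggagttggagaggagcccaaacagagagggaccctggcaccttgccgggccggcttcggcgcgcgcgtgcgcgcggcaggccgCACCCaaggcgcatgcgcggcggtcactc
Alas2, chrX:150547167-150547466, plus strand: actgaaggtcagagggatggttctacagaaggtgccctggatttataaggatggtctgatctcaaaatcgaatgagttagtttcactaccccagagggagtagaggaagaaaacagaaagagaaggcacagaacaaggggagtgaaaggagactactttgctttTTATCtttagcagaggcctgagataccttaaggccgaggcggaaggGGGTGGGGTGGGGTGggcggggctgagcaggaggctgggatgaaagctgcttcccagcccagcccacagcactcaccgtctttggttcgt
The Alas2 window held 1 GATAA and 3 CACCC matches and 0 TTCNNNGAA matches, and the Alas1 window held 0, 2 and 1. A second annotated window of Alas1, not shown, held 0, 1 and 0. Over the 26 genes of the set with a window, GATAA was in 30.8%, CACCC in 76.9% and TTCNNNGAA in 3.85%, against 28.4%, 59.8% and 9.55% of the 27025 genes in the table. A gene counts where any of its windows matched, so genes with more windows match more easily. By window, the matches were in 10, 28 and 1 of the 42 of the set, against 25.4%, 57.5% and 8.3% of all 32851. These are counts of letters, and binding was not measured.

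Libraries, made per the labels from 230000 sorted cells each, held 31583023 to 59448945 counts. The lowest value below, 18 reads of Hmox1 in a library, is above the 3 counts taken as the floor. The 10 MEP markers, Gata1, Klf1 and Kit among them, summed to 2222 to 2682 CPM in all 29 libraries. Ezh2 RNA was 51.2 to 59.5 CPM in V617F Ezh2 -/- and 67.9 to 79.5 CPM in Ezh2 -/- libraries, against 244 to 313 CPM in V617F Ezh2 +/+ and 269 to 319 CPM in Ezh2 +/+ libraries. CPM is the count scaled to a library of fixed size, with TMM-adjusted library sizes. Marker genes of other cells moved with genotype. The sum of 8 megakaryocyte markers was 462 to 756 CPM in V617F Ezh2 -/- libraries and 177 to 927 CPM in V617F Ezh2 +/+ libraries, against 43 to 62 CPM in Ezh2 -/- and 52.1 to 247 CPM in Ezh2 +/+ libraries. The sum of 15 macrophage and monocyte markers was 12.6 to 40.7 CPM in V617F Ezh2 -/- and 23 to 45 CPM in V617F Ezh2 +/+ libraries, against 35.7 to 64.6 CPM in Ezh2 -/- and 49.3 to 163 CPM in Ezh2 +/+ libraries. Its highest values, 255 and 163 CPM, were those of Ezh2 +/- replicate 5 and Ezh2 +/+ replicate 5. The sum of 10 maturing erythroblast markers was 1012 to 1375 CPM in V617F Ezh2 -/- and 1046 to 1581 CPM in V617F Ezh2 +/+ libraries, against 1585 to 1807 CPM in Ezh2 -/- and 1519 to 1729 CPM in Ezh2 +/+ libraries. The sum of 10 granulocyte markers was 130.2 to 1331 CPM in V617F Ezh2 -/- and 662 to 1174 CPM in V617F Ezh2 +/+ libraries, against 21.1 to 86.3 CPM in Ezh2 -/- and 48.5 to 329 CPM in Ezh2 +/+ libraries. The sum of 8 T and NK cell markers was 49.6 to 81.8 CPM in V617F Ezh2 -/- and 29.4 to 48.2 CPM in V617F Ezh2 +/+ libraries, against 45.6 to 78 CPM in Ezh2 -/- and 53.3 to 167 CPM in Ezh2 +/+ libraries. With V617F in Ezh2 +/+ cells, 9 of the 10 granulocyte markers were higher (median log2 fold change 3.16) and 7 of the 8 T and NK cell markers lower (median -2.87). In bulk RNA, fewer cells of a type and less RNA per cell cannot be told apart. The part of these marker shifts in the results below was not tested beyond the values given beside them.

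In control MEPs the messages of iron storage stood far above those of the first enzyme. Per kilobase of gene model, ferritin light chain Ftl1 averaged 654 ± 41 CPM and ferritin heavy chain Fth1 642 ± 60.7 CPM (SD, n = 5 libraries), the highest of the 32 genes. Next came Blvrb with 381 ± 39.2 CPM per kb, a reductase of flavins and of biliverdin, and the iron chaperones Pcbp1 and Pcbp2 with 312 ± 24.9 and 265 ± 19.5 CPM per kb. The transferrin receptor Tfrc ranked sixth with 178 ± 22.6 CPM per kb. Among the enzymes Urod and Cpox were highest with 148 ± 9.3 and 129 ± 16.9 CPM per kb, and the rate-setting ALA synthases were lowest, Alas1 with 9.43 ± 0.612 and Alas2 with 7.73 ± 2.96 CPM per kb. Ftl1 and Fth1, Tfrc and the next gene Glrx5, and Alas1 and Alas2 were neighbours in this order that lay within their SDs. The steps from Fth1 to Blvrb, Pcbp1, Pcbp2 and Tfrc were each wider than the SDs.

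The widest difference was the one V617F made in cells without Ezh2. In V617F Ezh2 -/- MEPs 21 of the 32 genes were lower and 2 higher than in Ezh2 -/- MEPs, 71.9% called against 41.6% of the 13928 genes tested (22.5% lower and 19.1% higher). The median log2 fold change of the 32 genes was -0.30, against -0.03 over all genes tested, and 28 of 32 were negative (87.5%, against 53.1% of all genes). The lower genes spanned every role, from enzymes (Alad, Urod, Ppox, Fech) through ferritin and ferroportin to iron-sulfur assembly, and most changes were modest: of the 21, all but Hmox1 (-2.03) lay between -0.79 and -0.19. In Ezh2 +/+ cells V617F had a smaller and more mixed effect on the set, with 2 genes higher (Alas1, Tfrc) and 3 lower (Ppox, Aco1, Hmox1). That is 15.6% called against 23.6% of all genes (9.73% higher and 13.9% lower), with a median of 0.01. In Ezh2 +/- cells it raised 1 gene (Alas1) and lowered 6 (Alas2, Alad, Urod, Ppox, Aco1, Hmox1), 21.9% called against 9.87% of all genes (3.35% higher and 6.51% lower). A gene is called here where edgeR's quasi-likelihood test, adjusted over all genes by Benjamini-Hochberg, gave p under 0.05, and "rose" and "fell" are kept for called genes.

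Loss of Ezh2 without V617F gave 1 call in the set. In Ezh2 -/- MEPs without V617F, 1 gene fell (Alas2) and 0 rose, 3.12% called against 23.7% of all genes (11.5% higher and 12.2% lower), although 23 of 32 fold changes were positive (median 0.11). DESeq2 called 4 of the 32, beside 1785 higher and 2086 lower of 13928 genes. A fit of only the groups compared called 7, beside 1732 higher and 1567 lower of 13148 genes. Among V617F cells the loss of Ezh2 lowered 7 genes (Slc40a1, Nfs1, Aco1, Ftl1, Iscu, Flvcr1, Blvra) and raised 1 (Slc25a37), 25% called against 26.6% of all genes (13% higher and 13.6% lower), with 29 of 32 negative and a median of -0.26 against -0.003 over all genes. Loss of 1 Ezh2 copy gave 0 calls in the set in either background, against 0.0144% of all genes without V617F and 0.00718% with it. By unadjusted p under 0.05 there was 1 gene of the 32 in each of these comparisons. Over all 13928 genes there were 384 without V617F and 881 with it. DESeq2 called 0 of the 32 in each, beside 3 higher and 1 lower of all genes without V617F and 37 higher and 2 lower with it. Across the 7 pairwise comparisons 26 of the 32 genes were called at least once, in 44 calls, and 6 were not (Uros, Cpox, Abcb10, Tfr2, Ireb2, Hmox2). The share of all genes called at least once was not counted, so the 26 has no baseline here. The comparisons share groups: V617F Ezh2 -/- libraries enter both comparisons with the most lower calls, and Ezh2 +/+ controls enter 3 of the 7.

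**Figure D1:**
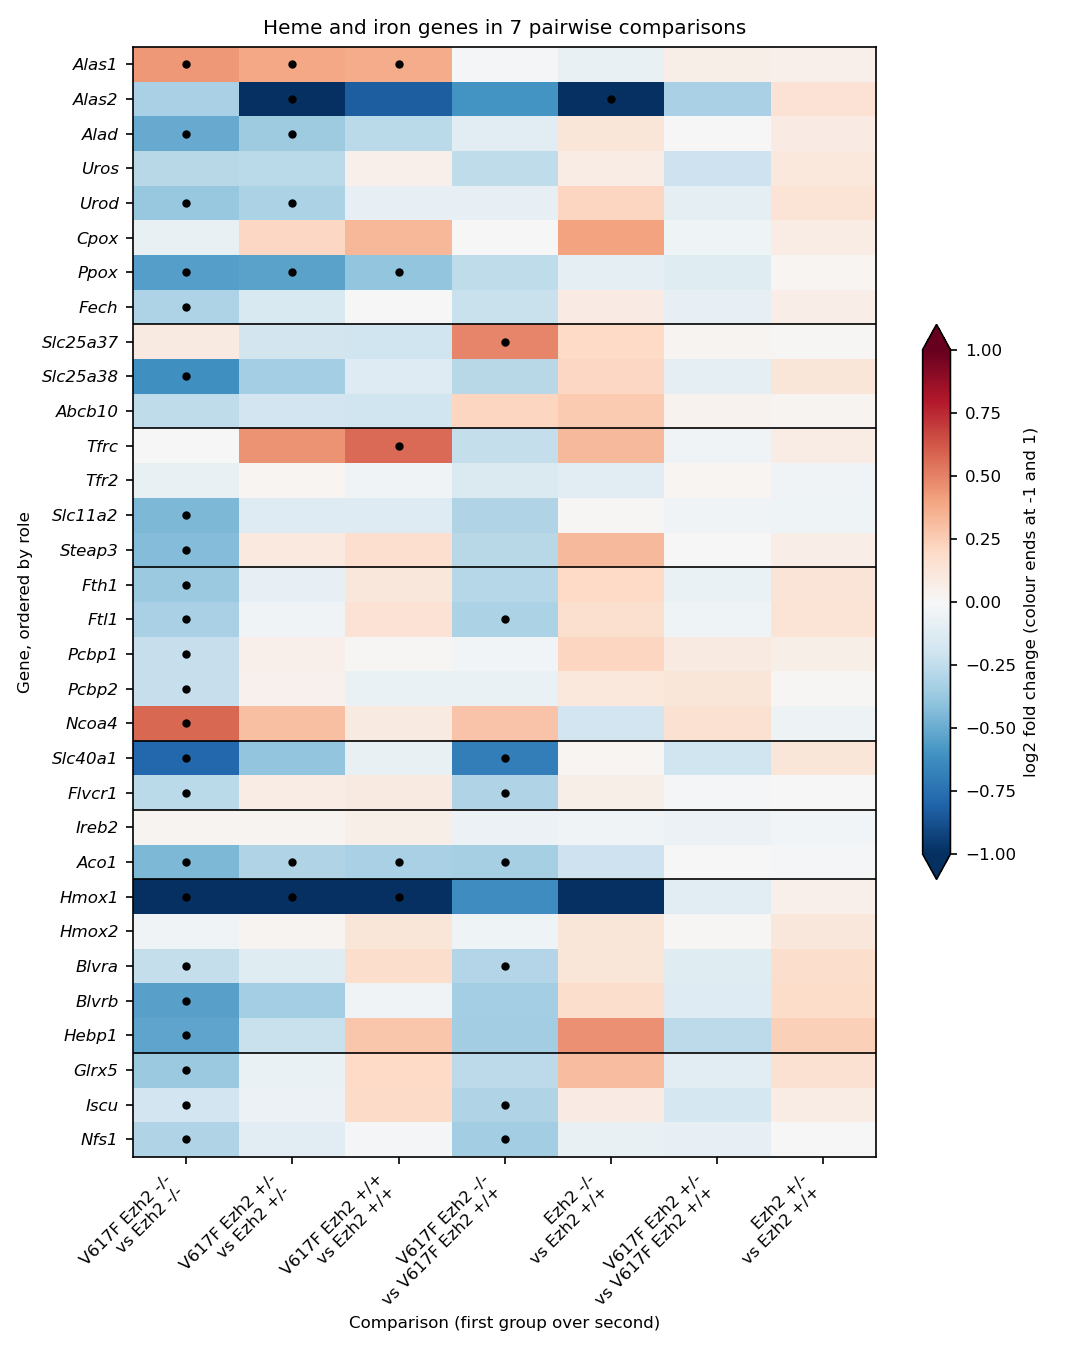
Log2 fold change of the 32 genes (rows, ordered by role) in 7 pairwise comparisons (columns, first group over second). Blue is lower and red higher in the first group, colours end at -1 and 1, and a dot marks an edgeR adjusted p under 0.05. The column of V617F Ezh2 -/- over Ezh2 -/- holds 21 blue and 2 red cells with a dot, and the columns of the Ezh2 +/- over Ezh2 +/+ comparisons hold none.

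**Figure D2:**
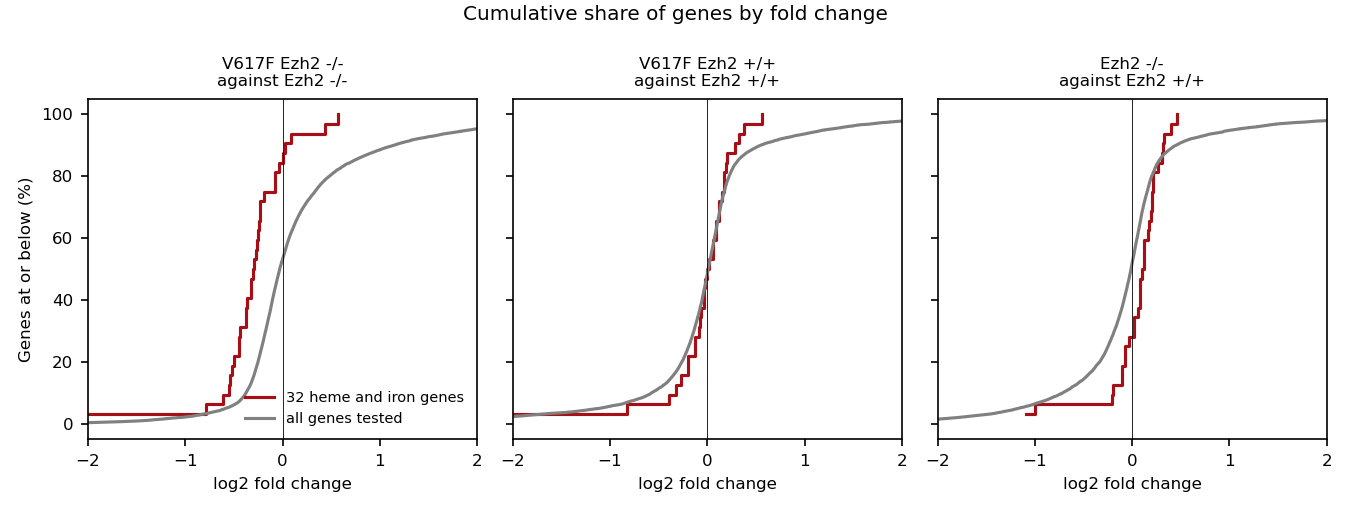
Cumulative share of genes (y axis, %) at or below a log2 fold change (x axis) for the 32 heme and iron genes (red) and all 13928 genes tested (grey) in 3 comparisons. The red curve lies left of the grey one for V617F Ezh2 -/- against Ezh2 -/- (medians -0.30 and -0.03) and crosses it near the middle for V617F Ezh2 +/+ against Ezh2 +/+. Values beyond -2 and 2 are not drawn.

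The count in V617F Ezh2 -/- against Ezh2 -/- rested partly on single libraries. Without Ezh2 -/- replicate 3 11 were lower and 2 higher, and calls over all genes numbered 3197, against 5795 with it. Without V617F Ezh2 -/- replicate 2 it was 13 lower and 2 higher. Among female libraries only it was 19 lower and 2 higher, beside 2300 lower and 2875 higher of 14181 genes. The other comparisons moved too. The 8 calls of V617F Ezh2 -/- against V617F Ezh2 +/+ became 14 without V617F Ezh2 +/+ replicate 1. The 5 calls of V617F Ezh2 +/+ against Ezh2 +/+ became 2 without Ezh2 +/+ replicate 1 and 3 without V617F Ezh2 +/+ replicate 1 or 4. The 7 calls of V617F Ezh2 +/- against Ezh2 +/- became 2 and 4 without Ezh2 +/- replicate 2 and replicate 5, and 11 without V617F Ezh2 +/- replicate 2. The single call of Ezh2 -/- against Ezh2 +/+ became 4 without Ezh2 +/+ replicate 4, 2 without Ezh2 -/- replicate 2 and 0 without Ezh2 -/- replicate 3. Calls over all genes moved on leaving out a library too. Their ranges are in the last section, except for V617F Ezh2 +/+ against Ezh2 +/+, where none is given. Whether the set moved beyond all genes was not tested.

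At the entry of the pathway Alas1, the housekeeping ALA synthase, rose with V617F. It measured 25.5 to 36.4 CPM (median 33.4) in V617F Ezh2 -/- and 34.9, 30.4, 34.4 and 32 CPM in V617F Ezh2 +/+ libraries. In the groups without V617F, Ezh2 -/- had 26.5, 25.9, 22.6 and 21.6 CPM and Ezh2 +/+ 24.5, 28.4, 25.1, 24.9 and 24.4 CPM. Every V617F Ezh2 +/+ library lay above every control, and the lowest V617F Ezh2 -/- library lay among the Ezh2 -/- ones. Alas1 rose with V617F by a log2 fold change of 0.43 ± 0.12 (adjusted p = 0.00639) in Ezh2 -/- cells, 0.37 ± 0.12 (adjusted p = 0.0234) in Ezh2 +/+ cells and 0.39 ± 0.12 (adjusted p = 0.0457) in Ezh2 +/- cells (± SE). Below, a change is on the log2 scale with its SE unless it is written as a fold or as times the level. It was the only gene of the 32 higher with V617F in all 3 Ezh2 genotypes. Alas1 was not called in Ezh2 +/+ cells without Ezh2 +/+ replicate 1, or V617F Ezh2 +/+ replicate 1 or 3 (log2 0.34 to 0.36, adjusted p = 0.0507 to 0.0679). Among female libraries it was not called either (log2 0.40, adjusted p = 0.0913). It was not called in Ezh2 +/- cells without Ezh2 +/- replicate 1, 2, 4 or 5, or V617F Ezh2 +/- replicate 6 (log2 0.27 to 0.45, adjusted p = 0.0588 to 0.209). Among female libraries, with both replicates 5 without V617F left out or with only the groups compared it was not called either (log2 0.33 to 0.43, adjusted p = 0.115 to 0.352).

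Alas2, the erythroid ALA synthase, was a low message in these progenitors. It measured 5.36 to 9.85 CPM (median 6.05) in V617F Ezh2 -/-, 4.65 to 15.4 CPM (median 7.06) in V617F Ezh2 +/- and 11.8, 10.7, 6.27 and 8.78 CPM in V617F Ezh2 +/+ libraries. In libraries without V617F it was 8.93, 6.14, 8.11 and 7.09 CPM in Ezh2 -/-, 11.6, 14.7, 9.36 and 33.1 CPM in Ezh2 +/- and 10.5, 16, 17.4, 8.95 and 23.6 CPM in Ezh2 +/+ libraries. The controls and the Ezh2 +/- libraries without V617F were the most spread, and the highest library of each was replicate 5, the one with the most macrophage marker RNA. Ezh2 -/- libraries did not overlap the controls, although the gap was narrow, at 8.93 against 8.95 CPM. Alas2 fell in Ezh2 -/- against Ezh2 +/+ cells at a log2 fold change of -1.09 ± 0.33 (adjusted p = 0.0162) and in V617F Ezh2 +/- against Ezh2 +/- cells at -1.29 ± 0.31 (adjusted p = 0.00855). The value in V617F Ezh2 +/+ against Ezh2 +/+ cells was -0.82 (adjusted p = 0.0655). The call in Ezh2 -/- cells was not made without Ezh2 +/+ replicate 5, or Ezh2 -/- replicate 2 or 3 (log2 -1.07 to -0.94, adjusted p = 0.0514 to 0.0623). Among female libraries it was not called either (log2 -1.13, adjusted p = 0.0738). That in V617F Ezh2 +/- cells was not made without Ezh2 +/- replicate 5 (log2 -0.79, adjusted p = 0.176). With only the groups compared it was not called either (log2 -1.55, adjusted p = 0.108). With both replicates 5 left out the values were -0.87, adjusted p = 0.055 in Ezh2 -/- against Ezh2 +/+ cells and -0.69, adjusted p = 0.226 in V617F Ezh2 +/- against Ezh2 +/- cells. Alas2 shares exon sequence with Apex2, a DNA repair gene on the opposite strand with 8.14 to 13.2 CPM. The labels do not give the strand setting of the counting, so reads of the pair cannot be told apart. In counts, without regard to gene length, the ratio of Alas1 to Alas2 within a library was 3.68 to 6.1 in V617F Ezh2 -/- and 2.84 to 5.49 in V617F Ezh2 +/+ libraries, against 2.78 to 4.22 in Ezh2 -/- and 1.03 to 2.78 in Ezh2 +/+ libraries.

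Of the 6 enzymes after ALA synthase, 4 fell with V617F in Ezh2 -/- cells (Alad, Urod, Ppox, Fech), where 22.5% of all genes were lower. Alad, which joins ALA molecules into the first pyrrole, measured 153 to 223 CPM (median 194) in V617F Ezh2 -/- and 169, 209, 227 and 213 CPM in V617F Ezh2 +/+ libraries. In the absence of V617F the levels were 266, 266, 294 and 248 CPM in Ezh2 -/- and 244, 267, 252, 265 and 215 CPM in Ezh2 +/+ libraries. All 6 V617F Ezh2 -/- libraries lay under all 4 Ezh2 -/- libraries, and the V617F Ezh2 +/+ libraries overlapped the controls. Alad fell with V617F at a log2 fold change of -0.50 ± 0.10 (adjusted p = 0.00106) in Ezh2 -/- cells and at -0.35 ± 0.11 (adjusted p = 0.0413) in Ezh2 +/- cells, with -0.27 (adjusted p = 0.0667) in Ezh2 +/+ cells. The call in Ezh2 +/- cells was not made without Ezh2 +/- replicate 1, 2 or 4, or V617F Ezh2 +/- replicate 1, 3, 4, 5 or 6 (log2 -0.35 to -0.30, adjusted p = 0.0516 to 0.199). Among female libraries, with only the groups compared or without the count filter it was not called either (log2 -0.34 to -0.31, adjusted p = 0.0514 to 0.298).

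Ppox, the oxidase that makes protoporphyrin, measured 39.4 to 55.4 CPM (median 46.6) in V617F Ezh2 -/-, 38.6 to 69.4 CPM (median 49.99) in V617F Ezh2 +/- and 46.6, 56.3, 66.3 and 52.9 CPM in V617F Ezh2 +/+ libraries. The libraries without V617F had 73.8, 69.5, 70.7 and 58.3 CPM in Ezh2 -/-, 72.3, 78.2, 78.1 and 68.8 CPM in Ezh2 +/- and 75.7, 71.5, 77.7, 70.9 and 70.3 CPM in Ezh2 +/+ libraries. Every V617F library of the Ezh2 -/- and Ezh2 +/+ genotypes lay under every library of its own genotype without V617F, and in Ezh2 +/- cells V617F replicate 2 reached into the other group. Ppox fell with V617F at a log2 fold change of -0.55 ± 0.13 (adjusted p = 0.00286) in Ezh2 -/-, -0.53 ± 0.14 (adjusted p = 0.0129) in Ezh2 +/- and -0.39 ± 0.14 (adjusted p = 0.0362) in Ezh2 +/+ cells. Ppox was not called in Ezh2 +/- cells without Ezh2 +/- replicate 2 (log2 -0.49, adjusted p = 0.0747). Among female libraries or with only the groups compared it was not called either (log2 -0.54 to -0.51, adjusted p = 0.0669 to 0.242). It was not called in Ezh2 +/+ cells without Ezh2 +/+ replicate 1, 3 or 5, or V617F Ezh2 +/+ replicate 1, 2 or 4 (log2 -0.39 to -0.32, adjusted p = 0.0511 to 0.113). With both replicates 5 without V617F left out or among female libraries it was not called either (log2 -0.48 to -0.39, adjusted p = 0.052 to 0.0658). B4galt3, a sugar transferase whose exons overlap Ppox on the opposite strand, was itself lower in V617F Ezh2 -/- against Ezh2 -/- cells, at a log2 fold change of -0.32 ± 0.08 (adjusted p = 0.00432), and reads of the pair cannot be told apart.

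Fech, ferrochelatase, which puts the iron into heme, measured 132 to 192 CPM (median 164) in V617F Ezh2 -/- and 163, 190.0, 216 and 198 CPM in V617F Ezh2 +/+ libraries. Without V617F, Ezh2 -/- libraries had 204, 199, 216 and 192 CPM and Ezh2 +/+ 187, 203, 192, 212 and 173 CPM. A single V617F Ezh2 -/- library reached the level of the lowest Ezh2 -/- library, and the V617F Ezh2 +/+ libraries spanned the controls. Fech fell with a log2 fold change of -0.30 ± 0.11 (adjusted p = 0.0269) in V617F Ezh2 -/- against Ezh2 -/- cells and had -0.001 (adjusted p = 0.994) in V617F Ezh2 +/+ against Ezh2 +/+ cells. The call was not made without Ezh2 -/- replicate 1 or 3, or V617F Ezh2 -/- replicate 2 or 4 (log2 -0.30 to -0.23, adjusted p = 0.0664 to 0.111). Urod, which trims the side chains of uroporphyrinogen, fell with a log2 fold change of -0.38 ± 0.08 (adjusted p = 0.00138) in V617F Ezh2 -/- and at -0.31 ± 0.09 (adjusted p = 0.0188) in V617F Ezh2 +/- cells, each against its own genotype without V617F. The Urod call in Ezh2 +/- cells was not made without Ezh2 +/- replicate 2 (log2 -0.29, adjusted p = 0.101). Among female libraries or with only the groups compared it was not called either (log2 -0.27 to -0.25, adjusted p = 0.179 to 0.314). Uros and Cpox, the enzymes on either side of Urod, passed in no comparison, and Cpox had positive values in both V617F Ezh2 +/+ and Ezh2 -/- against control cells, 0.33 and 0.40.

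Of the 3 mitochondrial carriers, each took its own course. Slc25a37, mitoferrin, which brings iron into mitochondria, measured 124 to 165 CPM (median 135) in V617F Ezh2 -/- and 87, 91.4, 105 and 99.1 CPM in V617F Ezh2 +/+ libraries. Among libraries without V617F it was 145, 107, 132 and 121 CPM in Ezh2 -/- and 105, 99, 120.4, 105 and 115 CPM in Ezh2 +/+ libraries. All V617F Ezh2 -/- libraries lay above all V617F Ezh2 +/+ libraries, and the groups without V617F overlapped. Slc25a37 rose by 0.49 ± 0.10 (adjusted p = 0.000792) in V617F Ezh2 -/- against V617F Ezh2 +/+ cells, 1.4-fold, the only rise among the 32 genes in that comparison, and the call held without each library in turn. Without V617F the effect of Ezh2 loss was 0.20 (adjusted p = 0.144), and the difference between both effects was 0.29 ± 0.14 (adjusted p = 0.116), so it was not shown to depend on V617F.

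Slc25a38, the carrier that brings glycine for ALA synthesis into mitochondria, measured 46.9 to 65.8 CPM (median 57.6) in V617F Ezh2 -/- and 57, 71.4, 84.2 and 73.1 CPM in V617F Ezh2 +/+ libraries. Of the groups without V617F, Ezh2 -/- had 91, 82.3, 104 and 79.8 CPM and Ezh2 +/+ 78.7, 87.4, 77, 80.3 and 70.1 CPM. Every V617F Ezh2 -/- library was under every Ezh2 -/- library. It fell with a log2 fold change of -0.61 ± 0.13 (adjusted p = 0.00136) in V617F Ezh2 -/- against Ezh2 -/- cells, 0.654 times the level, and had -0.13 (adjusted p = 0.529) in V617F Ezh2 +/+ against Ezh2 +/+ cells. The third, Abcb10, an inner membrane transporter that erythroid heme synthesis needs, passed in no comparison, with values from -0.25 in V617F Ezh2 -/- against Ezh2 -/- cells to 0.26 in Ezh2 -/- against Ezh2 +/+ cells.

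The transferrin receptor gene Tfrc, which carries 4 of the hairpins above, rose with V617F in Ezh2 +/+ cells. It measured 863 to 1273 CPM (median 1052) in V617F Ezh2 -/- and 1087, 1076, 1375 and 1596 CPM in V617F Ezh2 +/+ libraries. Without V617F it measured 1063, 981, 1212 and 1091 CPM in Ezh2 -/- and 873, 910.2, 917, 991 and 694 CPM in Ezh2 +/+ libraries. All V617F Ezh2 +/+ libraries lay above all controls, and the V617F Ezh2 -/- libraries spread beyond both ends of the Ezh2 -/- range. Tfrc rose by 0.56 ± 0.19 (adjusted p = 0.0289) in V617F Ezh2 +/+ against Ezh2 +/+ cells, 1.48-fold, and had -0.0003 (adjusted p = 0.999) in V617F Ezh2 -/- against Ezh2 -/- cells. The difference between these effects was -0.57 ± 0.26 (adjusted p = 0.106) and did not pass the test. The Tfrc call was not made without Ezh2 +/+ replicate 1 or 5, or V617F Ezh2 +/+ replicate 3 or 4 (log2 0.45 to 0.56, adjusted p = 0.0582 to 0.0874). With both replicates 5 without V617F left out or among female libraries it was not called either (log2 0.51 to 0.55, adjusted p = 0.0611 to 0.156). In V617F Ezh2 +/- libraries Tfrc had its widest spread, 727 to 1786 CPM, against 783 to 1038 CPM in Ezh2 +/- libraries.

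The endosomal partners of the receptor were called in a comparison where Tfrc was not. Steap3, the reductase that prepares iron for transport, fell with a log2 fold change of -0.44 ± 0.15 (adjusted p = 0.0267) and Slc11a2, the transporter DMT1 that carries it out of the endosome, fell at -0.45 ± 0.12 (adjusted p = 0.0071) in V617F Ezh2 -/- against Ezh2 -/- cells. Steap3 was 149.7 to 187 CPM in V617F Ezh2 -/- and 204 to 258 CPM in Ezh2 -/- libraries, and Slc11a2 was 103 to 131 CPM in V617F Ezh2 -/- and 159 to 169.8 CPM in Ezh2 -/- libraries, without overlap for either gene. The Steap3 call was not made without Ezh2 -/- replicate 1 or 3, or V617F Ezh2 -/- replicate 2 or 4 (log2 -0.40 to -0.34, adjusted p = 0.0581 to 0.117). Tfr2, the receptor paralog that acts as an iron sensor, passed in no comparison, with fold changes of -0.15 to 0.02.

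All 5 genes of iron storage and delivery were called in V617F Ezh2 -/- against Ezh2 -/- cells, 4 of them lower, and 0 were called with V617F in Ezh2 +/+ cells. Over all genes, 41.6% were called in the first comparison and 23.6% with V617F in Ezh2 +/+ cells. Fth1, ferritin heavy chain, measured 697 to 959.7 CPM (median 809) in V617F Ezh2 -/- and 828, 969, 1236 and 1129 CPM in V617F Ezh2 +/+ libraries. In the groups without V617F, Ezh2 -/- had 1090.4, 983, 1246 and 1070.2 CPM and Ezh2 +/+ 929, 1061, 907, 1075 and 877 CPM. The highest V617F Ezh2 -/- library was just under the lowest Ezh2 -/- library, and the V617F Ezh2 +/+ libraries overlapped the controls. Fth1 fell with a log2 fold change of -0.37 ± 0.12 (adjusted p = 0.0205) and Ftl1, ferritin light chain, at -0.33 ± 0.10 (adjusted p = 0.0107). Ftl1 also fell in V617F Ezh2 -/- against V617F Ezh2 +/+ cells, at a log2 fold change of -0.31 ± 0.10 (adjusted p = 0.0193), where Fth1 had -0.29 (adjusted p = 0.0875). The Fth1 call was not made without Ezh2 -/- replicate 1 or 3, or V617F Ezh2 -/- replicate 2 (log2 -0.36 to -0.26, adjusted p = 0.0519 to 0.124). The Ftl1 call against Ezh2 -/- was not made without Ezh2 -/- replicate 3 (log2 -0.24, adjusted p = 0.0723). The one against V617F Ezh2 +/+ was not made without V617F Ezh2 +/+ replicate 3 or 4, or V617F Ezh2 -/- replicate 2 or 4 (log2 -0.28 to -0.26, adjusted p = 0.0512 to 0.0804). With only the groups compared or among female libraries it was not called either (log2 -0.27, adjusted p = 0.0749 to 0.085). Both ferritin genes have processed pseudogenes in the genome, so their counts are uncertain where reads could be split. The chaperones Pcbp1 and Pcbp2, which hand iron to ferritin, fell with a log2 fold change of -0.23 ± 0.09 (adjusted p = 0.0476) and -0.23 ± 0.07 (adjusted p = 0.00932). The Pcbp1 call was not made without Ezh2 -/- replicate 1 or 3, or V617F Ezh2 -/- replicate 1, 2, 3 or 4 (log2 -0.22 to -0.14, adjusted p = 0.0734 to 0.238). By DESeq2, with RLE scaling, without the count filter or among female libraries it was not called either (log2 -0.22 to -0.20, adjusted p = 0.0596 to 0.0969).

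Ncoa4, the receptor that takes ferritin to the lysosome to release its iron, went the other way. It measured 42.8 to 53.9 CPM (median 47.1) in V617F Ezh2 -/-, 28.8 to 59.2 CPM (median 42.8) in V617F Ezh2 +/- and 44.5, 37, 31 and 37.4 CPM in V617F Ezh2 +/+ libraries. In libraries without V617F it was 31.6, 30.9, 28.6 and 30.8 CPM in Ezh2 -/-, 28.1, 33.4, 29.7 and 38.2 CPM in Ezh2 +/- and 29.6, 29.6, 37.8, 33.5 and 40.7 CPM in Ezh2 +/+ libraries. All V617F Ezh2 -/- libraries stood above all Ezh2 -/- libraries, which were tightly grouped. Ncoa4 rose by 0.57 ± 0.14 (adjusted p = 0.0043) in V617F Ezh2 -/- against Ezh2 -/- cells, 1.49-fold, and held without each library in turn, with 0.09 (adjusted p = 0.673) in V617F Ezh2 +/+ against Ezh2 +/+ cells. The difference between these effects was 0.48 ± 0.20 (adjusted p = 0.0855) and did not pass.

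Slc40a1, ferroportin, the exporter through which cells release iron, had the largest fall of the set after Hmox1 in V617F Ezh2 -/- cells. It measured 69.3 to 93.1 CPM (median 90.04) in V617F Ezh2 -/- and 111, 154, 152 and 129 CPM in V617F Ezh2 +/+ libraries. In the absence of V617F the levels were 147, 147, 150.2 and 137 CPM in Ezh2 -/-, 158, 161, 155 and 153 CPM in Ezh2 +/- and 143, 149, 148, 152 and 127 CPM in Ezh2 +/+ libraries. Every V617F Ezh2 -/- library was below every library of the groups it was compared with, and the V617F Ezh2 +/+ libraries overlapped the controls. Slc40a1 fell with a log2 fold change of -0.79 ± 0.13 (adjusted p = 0.000255) against Ezh2 -/- cells and at -0.69 ± 0.14 (adjusted p = 0.000624) against V617F Ezh2 +/+ cells, 0.579 and 0.618 times the level, and both calls stood under every alternative tried. The values were -0.07 (adjusted p = 0.736) in V617F Ezh2 +/+ and 0.02 (adjusted p = 0.927) in Ezh2 -/- against Ezh2 +/+ cells. Within a library, the ratio of Tfrc to Slc40a1 counts, without regard to gene length, was 11.3 to 13.7 in V617F Ezh2 -/- and 7 to 12.4 in V617F Ezh2 +/+ libraries, against 6.68 to 8.07 in Ezh2 -/- and 5.48 to 6.51 in Ezh2 +/+ libraries. Flvcr1, a transporter linked to heme export, fell with a log2 fold change of -0.27 ± 0.10 (adjusted p = 0.0421) and -0.30 ± 0.10 (adjusted p = 0.0365) in the same comparisons. Its call against Ezh2 -/- was not made without Ezh2 -/- replicate 1, 2 or 3, or V617F Ezh2 -/- replicate 2, 3 or 4 (log2 -0.27 to -0.21, adjusted p = 0.0741 to 0.125). By DESeq2, with RLE scaling, without the count filter or among female libraries it was not called either (log2 -0.26 to -0.24, adjusted p = 0.051 to 0.0935). The one against V617F Ezh2 +/+ cells was not made without V617F Ezh2 +/+ replicate 2, 3 or 4, or V617F Ezh2 -/- replicate 2, 3 or 4 (log2 -0.28 to -0.24, adjusted p = 0.0628 to 0.119). With only the groups compared or among female libraries it was not called either (log2 -0.25, adjusted p = 0.109 to 0.155).

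**Figure D3:**
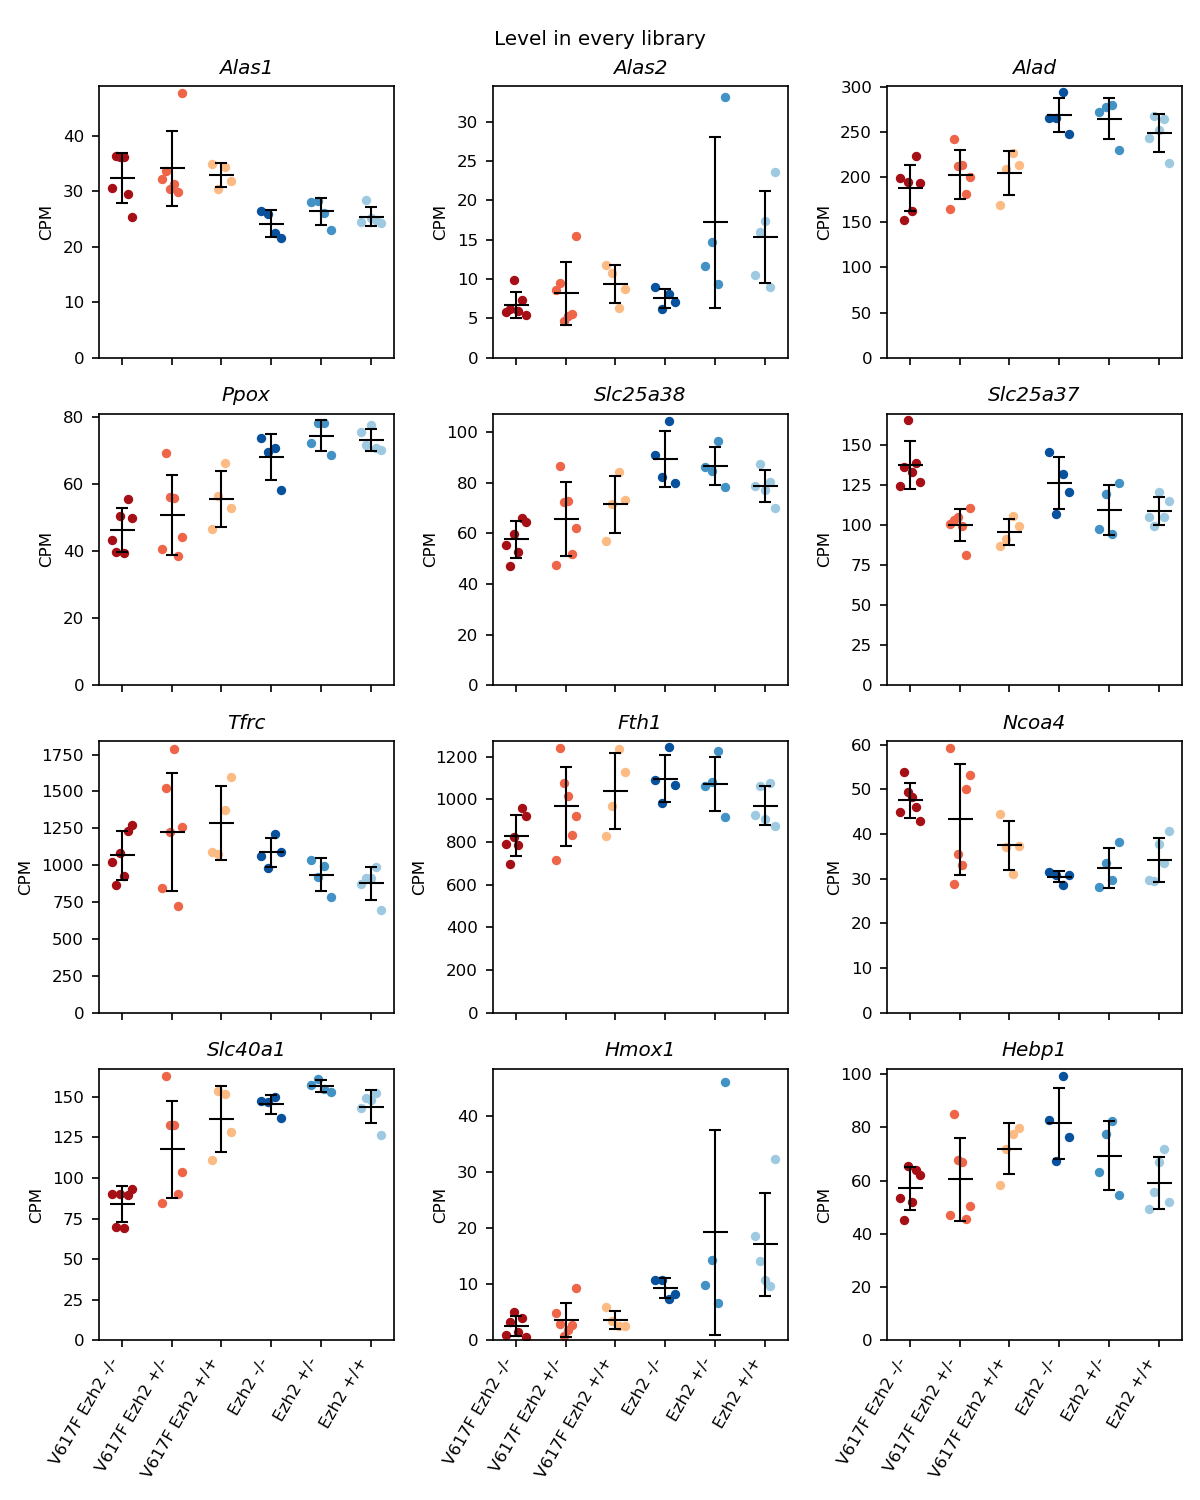
Level (CPM, y axes from 0) of 12 genes in every library, 1 point per library, by genotype (x axis), with bars at the mean ± SD over the 6, 6, 4, 4, 4 and 5 libraries of the groups from left to right. Slc40a1 in V617F Ezh2 -/- libraries lies under every other group but V617F Ezh2 +/-, and Alas2 and Hmox1 each have 1 high library among the Ezh2 +/- and the Ezh2 +/+ libraries without V617F.

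Of the regulatory proteins, only Aco1 was called. Aco1, which serves as cytosolic aconitase when it holds an iron-sulfur cluster and as iron regulatory protein IRP1 when it does not, was 79.5 to 93.2 CPM in V617F Ezh2 -/- and 90.3 to 123 CPM in V617F Ezh2 +/+ libraries. Without V617F it was 118 to 120.1 CPM in Ezh2 -/- and 119 to 149 CPM in Ezh2 +/+ libraries. The V617F Ezh2 -/- libraries lay below all libraries without V617F and reached the lowest V617F Ezh2 +/+ library. It fell with a log2 fold change of -0.45 ± 0.07 (adjusted p = 0.000179) with V617F in Ezh2 -/- cells, -0.32 ± 0.08 (adjusted p = 0.00358) in Ezh2 +/+ cells and -0.30 ± 0.08 (adjusted p = 0.0134) in Ezh2 +/- cells, and at -0.33 ± 0.07 (adjusted p = 0.00224) with Ezh2 loss among V617F cells, a call in 4 of 7 comparisons and the most of any gene in the set. The call in Ezh2 +/- cells was not made without Ezh2 +/- replicate 2 (log2 -0.25, adjusted p = 0.104). Among female libraries or with only the groups compared it was not called either (log2 -0.30 to -0.28, adjusted p = 0.103 to 0.141). The other 3 calls stood under every alternative tried. Ireb2, which encodes IRP2, passed in no comparison, with fold changes of -0.06 to 0.06 and SEs of 0.05 to 0.06.

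Heme breakdown showed the largest fold changes of the set. Hmox1, the inducible heme oxygenase that opens the heme ring, measured 0.567 to 5.02 CPM (median 2.43) in V617F Ezh2 -/-, 0.762 to 9.27 CPM (median 2.81) in V617F Ezh2 +/- and 6.04, 3.41, 2.48 and 2.53 CPM in V617F Ezh2 +/+ libraries. The libraries without V617F had 10.8, 10.9, 7.45 and 8.27 CPM in Ezh2 -/-, 9.81, 14.3, 6.73 and 46.1 CPM in Ezh2 +/- and 18.7, 14.2, 10.7, 9.68 and 32.3 CPM in Ezh2 +/+ libraries. V617F libraries lay under the libraries without V617F in the Ezh2 -/- and Ezh2 +/+ genotypes, and in Ezh2 +/- cells the groups overlapped through V617F replicate 6. Hmox1 fell with V617F at a log2 fold change of -2.03 ± 0.57 (adjusted p = 0.00835) in Ezh2 -/- cells, -2.56 ± 0.57 (adjusted p = 0.0043) in Ezh2 +/- cells and -2.41 ± 0.63 (adjusted p = 0.00722) in Ezh2 +/+ cells, to 0.244, 0.17 and 0.189 times the level. The call in Ezh2 +/- cells was not made without Ezh2 +/- replicate 5 (log2 -1.69, adjusted p = 0.112), and that in Ezh2 +/+ cells was not made among female libraries (log2 -2.15, adjusted p = 0.0729). Hmox1 is abundant in macrophages, and macrophage marker RNA moved with it: of 15 macrophage and monocyte markers, 7 were lower and 0 higher with V617F in Ezh2 -/- cells, 14 lower and 0 higher in Ezh2 +/- cells, and 12 lower and 0 higher in Ezh2 +/+ cells. In Ezh2 +/- cells the 14 became 1 without Ezh2 +/- replicate 5. In Ezh2 +/+ cells the 12 became 7 without Ezh2 +/+ replicate 5 or V617F Ezh2 +/+ replicate 2, and 6 without V617F Ezh2 +/+ replicate 3 or 4. In Ezh2 -/- cells the 7 became 3 or 4 without any 1 of the 4 Ezh2 -/- libraries or of V617F Ezh2 -/- replicates 1, 4 and 6, and 2 among female libraries. Of the 15 markers, 14 had reads in every library. Ms4a7 had none in 1 V617F Ezh2 -/- and 1 V617F Ezh2 +/- library and up to 0.917 CPM elsewhere. With both replicates 5 without V617F left out, those of the highest macrophage sums, the fold change was -1.93 (adjusted p = 0.0298) in Ezh2 +/+ and -1.52, adjusted p = 0.141 in Ezh2 +/- cells. The part of macrophage RNA in the Hmox1 values beyond this was not tested.

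**Figure D4:**
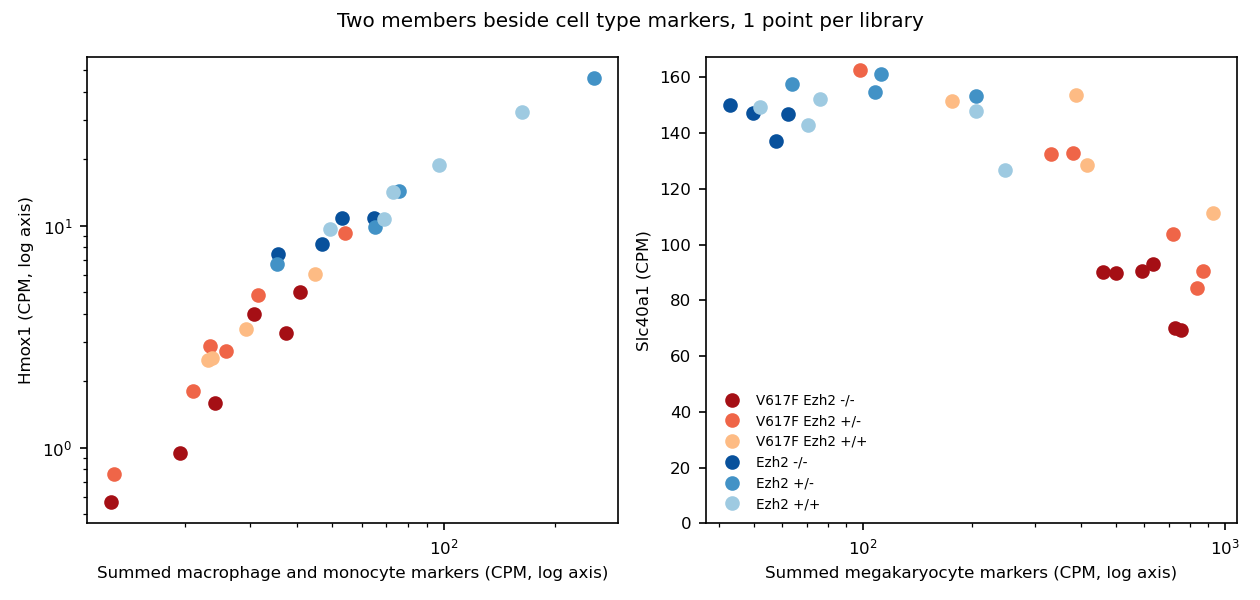
Left, Hmox1 (CPM, log axis) against the sum of 15 macrophage and monocyte markers (CPM, log axis), and right, Slc40a1 (CPM) against the sum of 8 megakaryocyte markers (CPM, log axis), 1 point per library, coloured by genotype. The library lowest in both is V617F Ezh2 -/- replicate 6 (0.567 CPM of Hmox1) and the one highest in both is Ezh2 +/- replicate 5 (46.1 CPM of Hmox1), and the 6 V617F Ezh2 -/- libraries hold low Slc40a1 beside megakaryocyte sums of 462 to 756 CPM.

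The other genes of heme binding and biliverdin reduction, Blvra, Blvrb and Hebp1, fell in V617F Ezh2 -/- against Ezh2 -/- cells. Blvrb measured 211 to 285 CPM (median 257) in V617F Ezh2 -/- and 248, 323, 357 and 359 CPM in V617F Ezh2 +/+ libraries. Without V617F, Ezh2 -/- libraries had 369, 318, 430.2 and 365 CPM and Ezh2 +/+ 293, 331, 343, 378 and 303 CPM. No V617F Ezh2 -/- library reached the Ezh2 -/- range, and V617F Ezh2 +/+ libraries overlapped the controls. Blvrb fell with a log2 fold change of -0.54 ± 0.14 (adjusted p = 0.00514) in V617F Ezh2 -/- against Ezh2 -/- cells and had -0.03 (adjusted p = 0.894) in V617F Ezh2 +/+ against Ezh2 +/+ cells.

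Hebp1, a small heme-binding protein, measured 45.4 to 65.5 CPM (median 57.8) in V617F Ezh2 -/- and 58.5, 72, 77.7 and 79.8 CPM in V617F Ezh2 +/+ libraries. Among libraries without V617F it was 82.8, 67.5, 99.3 and 76.4 CPM in Ezh2 -/- and 49.2, 55.6, 66.9, 72.1 and 52.1 CPM in Ezh2 +/+ libraries. The Ezh2 -/- libraries without V617F reached the highest of these values, and all lay above the V617F Ezh2 -/- libraries. Hebp1 fell with a log2 fold change of -0.52 ± 0.16 (adjusted p = 0.0152) in V617F Ezh2 -/- against Ezh2 -/- cells, and had 0.46 (adjusted p = 0.0512) in Ezh2 -/- against Ezh2 +/+ cells. The call was not made without Ezh2 -/- replicate 3 (log2 -0.39, adjusted p = 0.0967). Fam234b, which overlaps Hebp1 on the opposite strand, was lower in the same comparison at a log2 fold change of -0.44 ± 0.13 (adjusted p = 0.0104), and reads of the pair cannot be told apart. Blvra, the main biliverdin reductase, fell with a log2 fold change of -0.24 ± 0.08 (adjusted p = 0.0163) against Ezh2 -/- cells and -0.29 ± 0.08 (adjusted p = 0.00714) against V617F Ezh2 +/+ cells. The first of these calls was not made without Ezh2 -/- replicate 3, or V617F Ezh2 -/- replicate 2 (log2 -0.20 to -0.14, adjusted p = 0.052 to 0.139). Hmox2, the constitutive heme oxygenase, passed in no comparison, with values of -0.04 to 0.12.

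All 3 iron-sulfur genes fell in V617F Ezh2 -/- against Ezh2 -/- cells, and 2 of them also fell against V617F Ezh2 +/+ cells. Of all genes, 22.5% were lower in the first of these comparisons and 13.6% in the other. Nfs1, the desulfurase that supplies the sulfur, was 86.1 to 96.9 CPM in V617F Ezh2 -/- libraries, against 103 to 132 CPM in V617F Ezh2 +/+ and 109.6 to 123 CPM in Ezh2 -/- libraries, with no overlap with either. Nfs1 fell with a log2 fold change of -0.30 ± 0.08 (adjusted p = 0.00573) against Ezh2 -/- and -0.35 ± 0.08 (adjusted p = 0.00269) against V617F Ezh2 +/+ cells, and both calls stood under every alternative tried. Romo1, a mitochondrial gene that overlaps Nfs1 on the opposite strand, had 35.4 to 39 CPM in V617F Ezh2 -/- libraries, against 45.2 to 52.1 CPM in V617F Ezh2 +/+ and 41.6 to 48.8 CPM in Ezh2 -/- libraries. It was lower in both comparisons too, at a log2 fold change of -0.25 ± 0.08 (adjusted p = 0.0138) against Ezh2 -/- and -0.42 ± 0.08 (adjusted p = 0.000365) against V617F Ezh2 +/+ cells, and reads of the pair cannot be told apart. Iscu, the scaffold on which clusters form, fell with a log2 fold change of -0.19 ± 0.07 (adjusted p = 0.0358) and -0.30 ± 0.07 (adjusted p = 0.00377) in the same order. The Iscu call against Ezh2 -/- was not made without Ezh2 -/- replicate 1 or 3, or V617F Ezh2 -/- replicate 1, 2, 3 or 4 (log2 -0.18 to -0.11, adjusted p = 0.0616 to 0.258). By DESeq2, with RLE scaling or without the count filter it was not called either (log2 -0.17 to -0.16, adjusted p = 0.0551 to 0.0715). Glrx5, the glutaredoxin that passes clusters on, fell with a log2 fold change of -0.37 ± 0.13 (adjusted p = 0.0238) against Ezh2 -/- cells and had -0.26 (adjusted p = 0.131) against V617F Ezh2 +/+ cells. The Glrx5 call was not made without Ezh2 -/- replicate 1 or 3, or V617F Ezh2 -/- replicate 2 or 4 (log2 -0.37 to -0.24, adjusted p = 0.0544 to 0.164).

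Whether V617F acted differently in the absence of Ezh2 was tested by the interaction, the effect of V617F in Ezh2 -/- cells minus that in Ezh2 +/+ cells. Of the 32 genes 6 passed, all negative, which is 18.8% against 19.1% of all genes (8.47% positive and 10.6% negative). In all, 27 of 32 values were negative with a median of -0.30, against 0.03 over all genes. The 6 were Hebp1 (-0.80 ± 0.24, adjusted p = 0.0269), Slc40a1 (-0.71 ± 0.19, adjusted p = 0.0216), Glrx5 (-0.57 ± 0.18, adjusted p = 0.035), Ftl1 (-0.47 ± 0.14, adjusted p = 0.0261), Blvra (-0.41 ± 0.11, adjusted p = 0.0201) and Iscu (-0.38 ± 0.10, adjusted p = 0.0214). In 5 of these 6 the value with V617F was positive in Ezh2 +/+ cells, 0.28 for Hebp1, 0.20 for Glrx5, 0.19 for Iscu, 0.17 for Blvra and 0.15 for Ftl1, none of them called, and it was negative and called in Ezh2 -/- cells. Slc40a1 had -0.07 in Ezh2 +/+ cells. These calls rested on single libraries too: the 6 became 0 without Ezh2 +/+ replicate 1, without Ezh2 -/- replicate 3 and among female libraries only. They became 3 without V617F Ezh2 +/+ replicate 3 or 4, 10 without V617F Ezh2 -/- replicate 5, 11 without Ezh2 +/+ replicate 4 and 15 without V617F Ezh2 +/+ replicate 1. Interaction calls over all genes moved too. From 1180 positive and 1483 negative of 13928 genes they became 87 and 41 of 14181 among female libraries. Their range on leaving out a library is given in the last section. Without Ezh2 -/- replicate 3 the values of the 6 genes were -0.69 to -0.31, with adjusted p of 0.0549 to 0.0983. Glrx5 was also not called with both replicates 5 without V617F left out (log2 -0.54, adjusted p = 0.0538). The interaction of V617F with loss of 1 Ezh2 copy gave 0 calls among the 32 and 0% of all genes. At an unadjusted p under 0.05 there were 3 of the 32, beside 937 of 13928 genes. DESeq2 called 0 of the 32, beside 13 of 13928 genes.

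**Figure D5:**
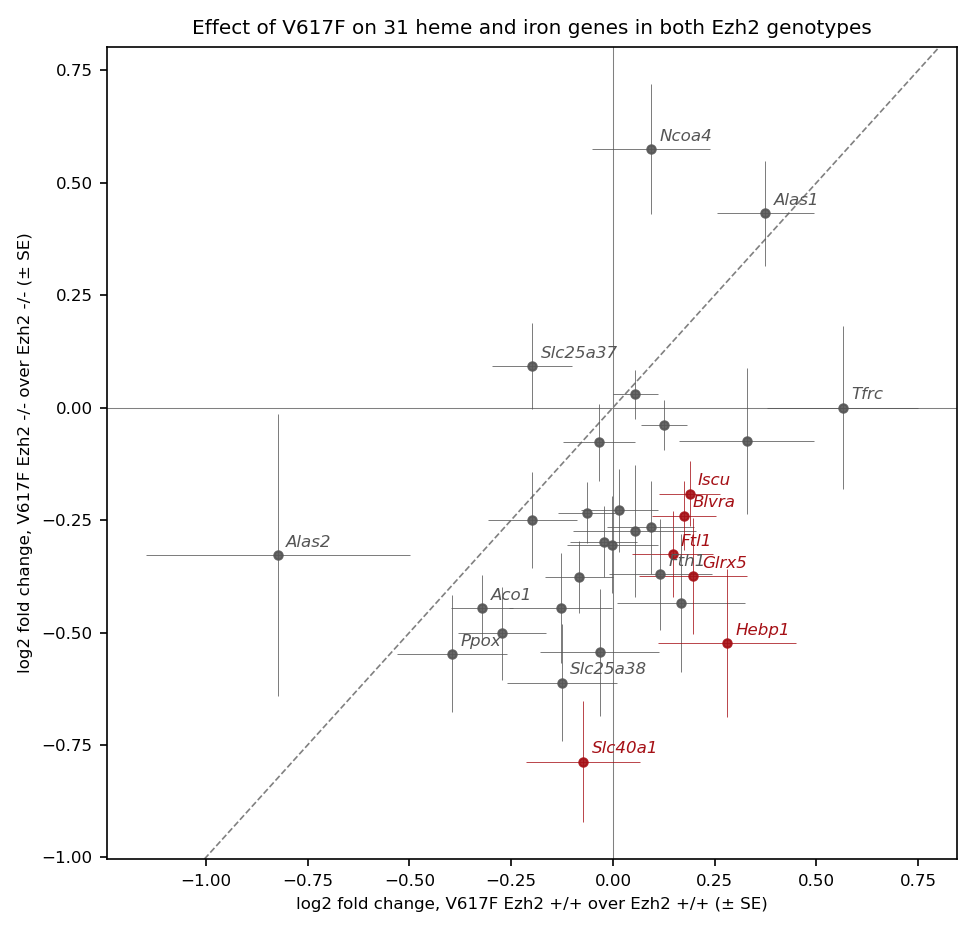
Log2 fold change with V617F in Ezh2 -/- cells (y axis) against that in Ezh2 +/+ cells (x axis) for 31 of the 32 genes, ± SE, with a dashed line of equal effects. Hmox1 is off the scale and left out at -2.03 and -2.41. The 6 genes in red passed the interaction test, and most points lie below the line.

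The V617F Ezh2 +/- libraries differed among themselves in several of these genes. Replicates 1 to 6 had 84.6, 163, 133, 132, 90.4 and 104 CPM of Slc40a1 and 207, 391, 332, 326, 240.2 and 266 CPM of Blvrb. Ncoa4 ran opposite, at 59.2, 28.8, 35.6, 33.1, 50.04 and 53.2 CPM in the same order. Replicates 1, 5 and 6, the libraries with less Slc40a1 and Blvrb and more Ncoa4, also had the highest megakaryocyte marker sums, 838, 869 and 718 CPM, against 98.2, 381 and 330.5 CPM in replicates 2, 3 and 4. Maturing erythroblast sums were lower in replicates 1, 5 and 6, at 1050, 934 and 1287 CPM against 1692, 1365 and 1421 CPM. T and NK cell sums were higher, at 70.1, 75 and 60.1 CPM against 21.7, 31.7 and 31.7 CPM. So were the macrophage and MEP sums, and the granulocyte sums overlapped. The lowest Slc40a1 of the V617F Ezh2 +/+ group, 111 CPM in replicate 1, also stood beside its highest megakaryocyte sum, 927 CPM. That library had the lowest maturing erythroblast sum of its group, 1046 CPM. Slc40a1 in V617F Ezh2 -/- libraries was 69.3 to 93.1 CPM at megakaryocyte sums of 462 to 756 CPM. The labels name no batch that sets these libraries apart, and the part of megakaryocyte, erythroid or other cell RNA in these levels was not tested.

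Markers of other cells moved in V617F Ezh2 -/- against Ezh2 -/- cells, where the set had its most calls. All 8 megakaryocyte markers were higher, with a median log2 fold change of 3.56, Pf4 by 4.04 ± 0.57 (adjusted p = 4.93e-05), and so were all 10 granulocyte markers, with a median of 3.59. Both counts held without each library in turn. Of the 8 T and NK cell markers 4 were lower and 1 higher, and 2 were lower without Ezh2 -/- replicate 4. Of the 10 maturing erythroblast markers, 3 were lower and 1 higher.

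The 10 MEP markers split in that comparison, with 4 lower and 3 higher and a median of -0.06. The lower ones were Klf1, the erythroid Krüppel-like factor (-0.41 ± 0.17, adjusted p = 0.0499), the erythropoietin receptor gene Epor (-0.49 ± 0.12, adjusted p = 0.00283), Gata1 (-0.28 ± 0.09, adjusted p = 0.0175) and Gfi1b (-0.36 ± 0.14, adjusted p = 0.0409). Gfi1b encodes a repressor found in erythroid and megakaryocytic cells. Among the higher ones were the platelet integrin gene Itga2b (2.42 ± 0.47, adjusted p = 0.000747) and Gata2, a factor of earlier progenitors (1.21 ± 0.25, adjusted p = 0.0012). The 4 lower calls became 1 without Ezh2 -/- replicate 1 or 3 or V617F Ezh2 -/- replicate 2, and 2 without Ezh2 -/- replicate 2 or V617F Ezh2 -/- replicate 1, 3 or 4. The Klf1 call was not made without Ezh2 -/- replicate 1, 2 or 3, or V617F Ezh2 -/- replicate 1, 2, 3 or 4 (log2 -0.45 to -0.33, adjusted p = 0.0586 to 0.167). With RLE scaling, without the count filter or among female libraries it was not called either (log2 -0.45 to -0.38, adjusted p = 0.0622 to 0.0766). The Gata1 call was not made without Ezh2 -/- replicate 1 or 3, or V617F Ezh2 -/- replicate 2 (log2 -0.25 to -0.23, adjusted p = 0.0526 to 0.0711). The calls of Gfi1b and Itga2b were followed only within the counts of the list, not gene by gene. The part of these shifts in the heme and iron values was not tested.

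Beyond the 32 genes, a wider list of 49 other heme and iron genes was read in the same fit. Of the 44 that passed the filter, 24 were lower and 3 higher in V617F Ezh2 -/- against Ezh2 -/- cells, 61.4% called against 41.6% of all genes, with a median of -0.22, against -0.03 over all genes. Without Ezh2 -/- replicate 3 it was 10 lower and 2 higher, without Ezh2 -/- replicate 1 15 lower and 2 higher, and without V617F Ezh2 -/- replicate 2 15 lower and 3 higher. The lowest adjusted p belonged to Cox15, which makes heme A (-0.35 ± 0.06, adjusted p = 0.000189), Iba57, a late iron-sulfur factor (-0.37 ± 0.08, adjusted p = 0.00164), the cytosolic cluster scaffold Nubp1 (-0.38 ± 0.08, adjusted p = 0.0019) and Eif2ak1, the heme-regulated kinase that restrains globin translation (-0.36 ± 0.08, adjusted p = 0.00195). The higher genes were Erfe (1.60 ± 0.25, adjusted p = 0.000104), Bach1, the heme-sensing repressor of Hmox1 (0.41 ± 0.11, adjusted p = 0.00625) and Fbxl5, the ligase that degrades IRP2 (0.19 ± 0.06, adjusted p = 0.0205). The Fbxl5 call was not made without Ezh2 -/- replicate 1, 2 or 3 (log2 0.16 to 0.19, adjusted p = 0.054 to 0.076). Erfe, erythroferrone, a hormone of red cell precursors that lowers hepcidin, rose with V617F in all 3 Ezh2 genotypes, by 2.47 ± 0.25 (adjusted p = 3.99e-07) in Ezh2 +/+ and 2.15 ± 0.26 (adjusted p = 1.24e-05) in Ezh2 +/- cells.

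In Ezh2 -/- against Ezh2 +/+ cells 6 of the 44 were higher and 1 lower, 15.9% called against 23.7% of all genes. It was 3 higher and 1 lower without Ezh2 +/+ replicate 1 or Ezh2 -/- replicate 1, 3 higher and 0 lower without Ezh2 +/+ replicate 5 or Ezh2 -/- replicate 3, and 2 higher and 1 lower among female libraries. Slc39a14, a transporter of zinc and of iron not bound to transferrin, rose by 0.92 ± 0.10 (adjusted p = 9.91e-08), Fdx1, a ferredoxin, by 0.45 ± 0.09 (adjusted p = 0.000628), Erfe by 0.99 ± 0.25 (adjusted p = 0.00467) and the related transporter Slc39a8 by 0.53 ± 0.17 (adjusted p = 0.0246), and Bach1 fell with a log2 fold change of -0.41 ± 0.11 (adjusted p = 0.00956). The Erfe call was not made among female libraries (log2 0.91, adjusted p = 0.0517). The Slc39a8 call was not made without Ezh2 +/+ replicate 1 or 5, or Ezh2 -/- replicate 1 or 3 (log2 0.46 to 0.50, adjusted p = 0.0555 to 0.0724). With both replicates 5 without V617F left out or among female libraries it was not called either (log2 0.48 to 0.50, adjusted p = 0.0582 to 0.151). The Bach1 call was not made without Ezh2 +/+ replicate 5, or Ezh2 -/- replicate 3 (log2 -0.37 to -0.33, adjusted p = 0.0569 to 0.0597). With both replicates 5 without V617F left out it was not called either (log2 -0.31, adjusted p = 0.0748).

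In V617F Ezh2 -/- against V617F Ezh2 +/+ cells Slc39a14 was again higher, by 0.80 ± 0.10 (adjusted p = 1.98e-06), the 1 rise beside 13 falls, of which the lowest adjusted p was that of Pgrmc1, a heme-binding membrane protein (-0.31 ± 0.06, adjusted p = 0.000313). That is 31.8% of the 44 called, against 26.6% of all genes. The 13 falls became 4 without V617F Ezh2 +/+ replicate 4 and among female libraries. They became 6 without V617F Ezh2 -/- replicate 2, 7 without V617F Ezh2 +/+ replicate 2 or V617F Ezh2 -/- replicate 4, 8 without V617F Ezh2 -/- replicate 3, and 7 with only the groups compared. In V617F Ezh2 +/+ against Ezh2 +/+ cells 6 were higher and 3 lower, 20.5% called against 23.6% of all genes, the lower ones being Mms19 (-0.33 ± 0.07, adjusted p = 0.00141), Cox15 (-0.22 ± 0.06, adjusted p = 0.0114) and Iba57 (-0.24 ± 0.08, adjusted p = 0.0372). It was 2 higher and 3 lower without Ezh2 +/+ replicate 1, 3 higher and 3 lower without V617F Ezh2 +/+ replicate 3, and 2 higher and 1 lower among female libraries. The Cox15 call was not made among female libraries (log2 -0.18, adjusted p = 0.109). The Iba57 call was not made without Ezh2 +/+ replicate 3 or 4, or V617F Ezh2 +/+ replicate 1 (log2 -0.25 to -0.16, adjusted p = 0.0519 to 0.154). Without the count filter, with only the groups compared or among female libraries it was not called either (log2 -0.29 to -0.23, adjusted p = 0.0544 to 0.0959). In V617F Ezh2 +/- against Ezh2 +/- cells Erfe was the 1 higher gene and Cox15 the 1 lower (-0.19 ± 0.06, adjusted p = 0.0488), 4.55% called against 9.87% of all genes, and 3 were higher without V617F Ezh2 +/- replicate 2. This Cox15 call was not made without Ezh2 +/- replicate 1, 2 or 4, or V617F Ezh2 +/- replicate 1, 5 or 6 (log2 -0.19 to -0.15, adjusted p = 0.0863 to 0.197). Among female libraries, with only the groups compared, without the count filter or with RLE scaling it was not called either (log2 -0.18 to -0.12, adjusted p = 0.0537 to 0.539).

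The interaction of V617F with Ezh2 -/- passed in 14 of the 44, 31.8% against 19.1% of all genes, in 13 negatively, with the lowest adjusted p in Nubp2 (-0.53 ± 0.15, adjusted p = 0.0254), and positively in Bach1 (0.49 ± 0.15, adjusted p = 0.0336). The 14 became 0 without Ezh2 +/+ replicate 1, Ezh2 -/- replicate 3 or V617F Ezh2 +/+ replicate 4, and among female libraries. They became 2 without Ezh2 +/+ replicate 5, 4 without V617F Ezh2 +/+ replicate 3 or V617F Ezh2 -/- replicate 2, and 9 without Ezh2 -/- replicate 1, V617F Ezh2 +/+ replicate 2 or V617F Ezh2 -/- replicate 4. The count was 26 without V617F Ezh2 +/+ replicate 1, 22 with only the groups compared and 5 with both replicates 5 without V617F left out. Over all genes it was 1818 positive and 2176 negative of 13820 with only the groups compared. Leaving out both replicates 5 without V617F gave 563 and 929 of 14010, and female libraries gave 87 and 41 of 14181. The interaction call of Nubp2 was not made without Ezh2 +/+ replicate 1, or Ezh2 -/- replicate 3, or V617F Ezh2 +/+ replicate 4 (log2 -0.48 to -0.42, adjusted p = 0.0569 to 0.0715). Among female libraries it was not called either (log2 -0.51, adjusted p = 0.114). That of Bach1 was not made without Ezh2 +/+ replicate 1 or 5, or Ezh2 -/- replicate 1 or 3, or V617F Ezh2 +/+ replicate 2, 3 or 4, or V617F Ezh2 -/- replicate 2 or 4 (log2 0.43 to 0.49, adjusted p = 0.0519 to 0.0971). Among female libraries or with both replicates 5 without V617F left out it was not called either (log2 0.43 to 0.54, adjusted p = 0.0722 to 0.104).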

How the data were processed

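RNA from sorted MEPs of 29 mouse libraries was sequenced, and the authors deposited raw read counts per gene, 1 value per Entrez identifier and library. The submitters' processing notes name STAR and the genome build mm9. For the STAR version, the counter, its strand setting and the annotation the labels give nothing. Groups and sex came from the labels. Symbols were matched to the Entrez identifiers through RefSeq for 18772 of 18834 genes, and the other 62 stayed in the library totals.

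The deposited counts were tested with edgeR 4.0.16 (R 4.3.3, limma 3.58.1): filterByExpr with a minimum count of 10 and a minimum total of 15, TMM scaling (factors 0.950 to 1.093), and 1 robust quasi-likelihood fit over all 29 libraries with genotype and labelled sex (22 residual degrees of freedom, biological coefficient of variation 18.1%). Tests were two-sided, p-values were adjusted by Benjamini-Hochberg over the 13928 genes left, and a call is an adjusted p under 0.05. SEs were taken from the fold change and the F statistic. The fit was also run on simulated counts in which few genes were changed, and only in V617F Ezh2 -/- libraries. Far more genes were called in the data and the outcome is not given here, so that run is no evidence on the calls. No pair of replicates agreed within sampling noise (chi-square per degree of freedom of at least 4.92). The labels do not say how replicates relate to animals, so p-values measure the spread between these libraries, which may be partly technical.

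The members, the wider list of 49 genes (48 in the files) and the marker lists were chosen by name with earlier results of these data known. A member was given per library where it was called in a pairwise comparison with an absolute log2 fold change of at least 0.5, plus Alas2, Fech, Tfrc, Slc25a37 and Fth1. Alas1 falls outside this rule and was added after its values were seen. Genes of the wider list were named where called, at most 4 per direction and comparison by lowest adjusted p. Within the marker lists, copies whose counts agreed within 1 read in every library were counted once. Alternatives were DESeq2 1.42.0, RLE scaling, no count filter, no sex term, female libraries, only the groups compared, a replicate block, and each library left out.

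The deviations of same-numbered libraries had positive correlations in all 4 pairs of V617F Ezh2 +/- against V617F Ezh2 +/+, 0.158 to 0.661. The same held for the 4 pairs of V617F Ezh2 +/+ against Ezh2 +/+, 0.0375 to 0.461. Every other comparison had a pair with a negative correlation. With the replicate block 0 of the 32 genes were called in V617F Ezh2 +/- against V617F Ezh2 +/+, as without it. In V617F Ezh2 +/+ against Ezh2 +/+ 2 were higher and 3 lower, also as without it.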

Additional observations from a re-analysis of the deposited data

Results flagged for a closer look

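Of 192 combinations of gene and genotype, 7 held a library far from the others of its group, and chance gives about 1 in 20. Alas1 was 47.7 CPM in V617F Ezh2 +/- replicate 6 and 28.4 CPM in Ezh2 +/+ replicate 2, each above its group. Ezh2 +/- replicate 5, the library with the most macrophage marker RNA, was below its group for Alad, at 230.7 CPM, and for Aco1, at 124 CPM. Ezh2 +/+ replicate 5 stood apart for Slc11a2, at 139.6 CPM. Slc25a37 was 165 CPM in V617F Ezh2 -/- replicate 3, above its group, and Pcbp2 was 664 CPM in V617F Ezh2 +/- replicate 1.

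The effect of V617F differed between Ezh2 -/- and Ezh2 +/+ cells by edgeR's interaction test for 6 genes, with log2 differences of -0.80 for Hebp1, -0.71 for Slc40a1, -0.57 for Glrx5, -0.47 for Ftl1, -0.41 for Blvra and -0.38 for Iscu. That is 18.8% of the 32 genes, near the 19.1% of all genes that passed this test. All 6 were lost without Ezh2 +/+ replicate 1 or without Ezh2 -/- replicate 3. Interaction calls over all genes moved on leaving out a library too, over the range given below.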

How the results depend on the processing

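Of the 50 calls among the 32 genes, the interaction included, 20 stood under every alternative run, and none changed sign. Over the alternatives other than leaving out a library, 320 of 369 values kept their side of the threshold and 49 did not, 20 of these among female libraries only. Leaving out a library kept 444 of 548. For the genes named from the wider list and the markers Pf4, Klf1, Epor, Gata1 and Gata2, 581 of 664 values kept their side, 83 lost it and 0 changed sign. The causes were not tested.

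Counts of the 32 genes called moved as follows. In Ezh2 -/- against Ezh2 +/+ cells the 1 call became 4 by DESeq2, 3 with RLE scaling, 3 without the sex term, 7 with only the groups compared and 0 among females. In V617F Ezh2 +/+ against Ezh2 +/+ cells the 5 became 1 among females. In V617F Ezh2 +/- against Ezh2 +/- cells the 7 became 4 with both libraries numbered 5 without V617F left out (chosen after seeing the data), 2 among females and 1 with only the groups compared. The 6 interactions became 10 by DESeq2, 0 among females and 15 with only the groups compared. Leaving out 1 library gave 0 to 4 calls in Ezh2 -/- against Ezh2 +/+, 6 to 14 in V617F Ezh2 -/- against V617F Ezh2 +/+, 2 to 7 in V617F Ezh2 +/+ against Ezh2 +/+, 13 to 24 in V617F Ezh2 -/- against Ezh2 -/-, 2 to 11 in V617F Ezh2 +/- against Ezh2 +/- and 0 to 15 for the interaction.

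Over all genes, calls among females were 1681 in Ezh2 -/- against Ezh2 +/+, 2268 in V617F Ezh2 -/- against V617F Ezh2 +/+, 1875 in V617F Ezh2 +/+ against Ezh2 +/+, and 128 for the interaction with Ezh2 -/-. V617F Ezh2 +/- against Ezh2 +/- gave 700 with both libraries numbered 5 left out, 2170 without the sex term and 313 with only the groups compared. Its split was 467 higher and 907 lower in the edgeR fit and 830 higher and 959 lower by DESeq2. The interaction with Ezh2 -/- gave 1492 with both libraries numbered 5 left out. Ezh2 +/- against Ezh2 +/+ gave 4 by DESeq2, 1 with both libraries numbered 5 left out, 0 among females and 1 with only the groups compared. V617F Ezh2 +/- against V617F Ezh2 +/+ gave 39 by DESeq2, 20 among females and 2 with only the groups compared, and the interaction with Ezh2 +/- gave 13 by DESeq2. Leaving out 1 library gave 2096 to 3595 in Ezh2 -/- against Ezh2 +/+, 1954 to 5151 in V617F Ezh2 -/- against V617F Ezh2 +/+, 3197 to 6112 in V617F Ezh2 -/- against Ezh2 -/-, 706 to 1893 in V617F Ezh2 +/- against Ezh2 +/-, 1 to 2 in Ezh2 +/- against Ezh2 +/+, 1 to 37 in V617F Ezh2 +/- against V617F Ezh2 +/+ and 297 to 4633 for the interaction with Ezh2 -/-.

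With the replicate block, Ezh2 +/- against Ezh2 +/+ gave 1 call over all genes and the interaction with Ezh2 -/- gave 1623, and 46 of the 50 calls among the 32 genes stood. Outside V617F Ezh2 +/- against V617F Ezh2 +/+ and V617F Ezh2 +/+ against Ezh2 +/+, correlations of same-numbered libraries ran from -0.43 to 0.63. The labels do not say what a shared number means, so the block is no evidence on the calls it moved. Depth limits Hmox1 most, with 18 reads in its lowest library.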
